A study of Sus scrofa with 10 samples.

Results

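The 4 hemoglobin genes HBB, HBE1, HBM and HBZ were followed through every library of a single-cell RNA sequencing series of the developing and adult pig entorhinal cortex. They are 4 of the 22452 genes in the count tables and were chosen by name. Each barcode was placed in 1 of 2 compartments. A barcode with at least 30% of its unique molecular identifiers (UMIs, each standing for 1 captured RNA molecule) in HBB was called an erythroid cell, and this gave 1535 of 28229 barcodes (5.44%). The remaining 26694 barcodes are called other cells.

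The series holds 10 libraries made with the 10X Genomics droplet platform, of which 8 contained whole cells dissociated from fresh tissue with papain and 2 contained nuclei sorted from frozen tissue. Whole cells came from embryonic day 50 (E50_1, with 3 pooled brains), embryonic day 60 (E60_1 and E60_2 with 1 brain each, E60_3 with 2 pooled brains), embryonic day 70 (E70_1 with 2 pooled brains, E70_2 and E70_3 with 1 brain each) and an adult brain (Adult_1). Nuclei came from 1 brain at embryonic day 70 (E70_nc) and 1 adult brain (Adult_nc). The numbers of brains are those of the labels, which differ from a table of the study for E70_1 and E70_3, and the libraries labelled adult are also given a postnatal age in days by the study. The animals were farm pigs, and no treatment is named in the labels. Replicate libraries exist for whole cells of E60 and of E70, with 3 each. With 3 libraries against 3, an exact permutation test cannot give a p below 0.1. Values of E50, of the adult and of the nuclei rest on 1 library each and have no replicate check.

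The libraries differed in ways that touch the globin values. The total number of UMIs ran from 2336865 in Adult_nc to 55755512 in E50_1, and E70_1 and E70_2 held only 493 and 617 barcodes. E60_1 and E60_2 held no cluster named excitatory neuron-like, whereas E60_3 held 832 such cells. No pair of libraries shared more than 57 barcodes. No doublet caller was run, so a barcode with both globin RNA and many other genes can hold more than 1 cell.

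Hemoglobin carries oxygen in red blood cells and is built from alpha-like and beta-like chains. The genes of each kind lie together in a cluster, and the members of a cluster are used one after another during development, with embryonic chains in the first red cells and adult chains later. HBB encodes the adult beta chain. HBE1 encodes the embryonic epsilon chain of the beta-like cluster and HBZ the embryonic zeta chain of the alpha-like cluster. HBM, hemoglobin subunit mu, is a further alpha-like gene whose RNA is known from red cell precursors. Blood in the vessels is a known source of these RNAs in brain tissue, and RNA from broken cells can enter droplets as free RNA.

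In the RefSeq annotation of Sscrofa11.1, the build that the authors also used, all 4 genes lie on the minus strand and have 3 exons. HBB lies on chromosome 9 from 4800683 to 4801941 and HBE1 on the same chromosome from 4818206 to 4820243. HBM lies on chromosome 3 from 41489312 to 41490110 and HBZ next to it from 41490758 to 41492883. The models of HBB and HBE1 end at the stop codon, with 0 bases of 3′ untranslated sequence, whereas those of HBM and HBZ run on for 73 and 101 bases. The protocol counts RNA from its 3′ end, so the length of the 3′ model can set how many reads a gene is given. The gene models of the Ensembl annotation, with which the authors counted, were not used here.

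HBB and HBE1 are similar in their coding bases, and whether reads were exchanged between them was not tested. The last 99 coding bases are shown, with capitals where the pair differs. The stretch of HBB is chr9:4800683-4800781 and that of HBE1 is chr9:4818206-4818304, both on the minus strand.
HBB: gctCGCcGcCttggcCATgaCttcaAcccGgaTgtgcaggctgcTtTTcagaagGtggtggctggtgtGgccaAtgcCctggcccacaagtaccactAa
HBE1: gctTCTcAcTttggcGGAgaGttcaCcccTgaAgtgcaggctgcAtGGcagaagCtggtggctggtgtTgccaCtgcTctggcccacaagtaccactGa
The 2 genes differ at 20 of these 99 bases. Over the whole coding sequence of 444 bases they share 360 bases (81.1%), and the longest run without a difference is 33 bases.

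For HBM and HBZ the last 99 coding bases differ at 29 positions, again in capitals, and the longest run that their coding sequences share is 15 bases. The stretch of HBM is chr3:41489385-41489483 and that of HBZ is chr3:41490859-41490957, both on the minus strand.
HBM: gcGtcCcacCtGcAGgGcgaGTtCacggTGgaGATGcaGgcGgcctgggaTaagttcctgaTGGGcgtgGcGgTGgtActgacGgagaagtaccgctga
HBZ: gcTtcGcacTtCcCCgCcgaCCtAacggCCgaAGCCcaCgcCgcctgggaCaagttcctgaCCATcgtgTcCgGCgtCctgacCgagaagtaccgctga
HBM and HBZ thus differ from each other at more of these positions than HBB and HBE1 do.

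The 150 bases before the annotated starts of HBB, HBE1 and HBM are shown because the RNAs of these genes were found in the same cells. Capitals mark matches on either strand to 5 short motifs. The TATA box was searched as TATAAA and in the form CATAAA, the latter added after the sequences had been seen. The other motifs were the box named by its letters CCAAT, the box that red cell factors such as KLF1 bind, with the letters CACCC, and a GATA element written as AGATA. The stretches are chr9:4801942-4802091 for HBB, chr9:4820244-4820393 for HBE1 and chr3:41490111-41490260 for HBM, all on the minus strand.
HBB: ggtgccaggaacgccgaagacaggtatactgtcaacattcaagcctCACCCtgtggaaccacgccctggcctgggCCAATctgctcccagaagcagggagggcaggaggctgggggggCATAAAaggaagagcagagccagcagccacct
HBE1: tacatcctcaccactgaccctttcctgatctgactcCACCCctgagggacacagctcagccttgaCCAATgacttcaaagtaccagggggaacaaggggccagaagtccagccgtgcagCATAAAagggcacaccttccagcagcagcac
HBM: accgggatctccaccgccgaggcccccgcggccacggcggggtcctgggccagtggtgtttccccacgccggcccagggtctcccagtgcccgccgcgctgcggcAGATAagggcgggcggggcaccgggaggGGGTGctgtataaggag
The form CATAAA occurs 1 time before HBB and 1 time before HBE1, and so do the CCAAT and the CACCC boxes. Before HBM there is 1 AGATA and 1 match to CACCC on the opposite strand. Of the 19557 protein-coding genes with an annotated start on a chromosome, 4.42% hold the form CATAAA in a stretch of this length and 5.84% the form TATAAA. The CCAAT box is held by 23.1%, the letters of the CACCC box by 38.6% and those of the GATA element by 11.3%. For HBZ the annotated start lies 962 bases before the start codon, against 45 to 53 bases in the other 3 genes, and the 150 bases before it hold none of these motifs. A match is a description of the letters only.

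Erythroid cells were found in all 8 libraries of whole cells and in neither library of nuclei. They made up 2.82% of the barcodes in E50_1, 8.37%, 12.1% and 3.64% in E60_1, E60_2 and E60_3, 5.88%, 4.86% and 3.21% in E70_1, E70_2 and E70_3, and 2.44% in Adult_1. The E60 and E70 libraries overlapped, with the highest share in E60_2. The E60 libraries averaged 8.04% ± 4.24 (SD, n = 3), the E70 libraries 4.65% ± 1.35, and the difference of -3.39 percentage points did not exceed the spread (p = 0.3 by a two-sided exact permutation test, 0.6 after adjustment over the 8 stage comparisons made). In the pairs of libraries that shared a sequencing pool, the difference was -2.49 percentage points for E70_1 against E60_1 and -0.430 for E70_3 against E60_3. Among the nuclei, 0 of 858 in E70_nc allows a share of up to 0.35% and 0 of 2552 in Adult_nc a share of up to 0.118%, taking 3 counts as the limit that a count of 0 allows. The exact 95% intervals, which are wider, reach 0.429% and 0.144%. These limits, and all intervals given here, cover counting error only. The highest HBB share of a single nucleus was 0.278% in E70_nc and 0.35% in Adult_nc.

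**Figure D1:**
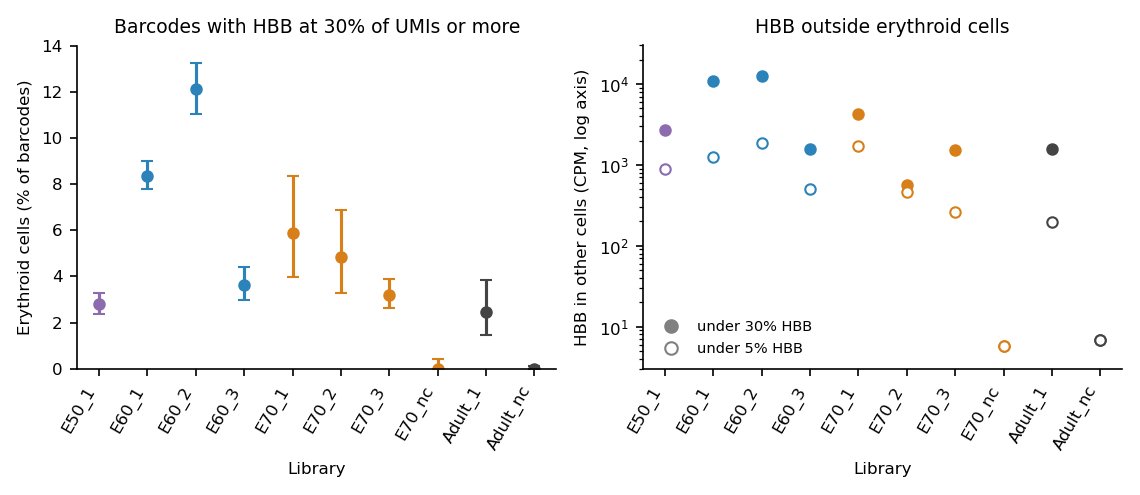
Left, the share of barcodes with at least 30% of UMIs in HBB in each of the 10 libraries, with exact Clopper-Pearson 95% intervals. Right, HBB in all other barcodes on a log axis in counts per 1000000 UMIs (CPM), with filled circles for barcodes under 30% HBB and open circles for barcodes under 5% HBB. The nuclei lie at 5.83 and 6.85 CPM and every whole-cell library lies above 100.

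HBB, which carries the adult beta chain, defined the erythroid cells, so its level within them is given as a description. The median share of UMIs in HBB was 53.4% in E50_1, 60.5%, 59.0% and 55.1% in the E60 libraries, 53.4% in E70_3 and 57.5% in Adult_1. The erythroid cells of E70_1 and E70_2 stood apart, with medians of 33.9% and 34.2%, and none of them reached 50%. They also carried a median of 977 and 1044.5 genes, against 169.5 to 385 genes in the other 6 libraries. The median number of HBB UMIs per erythroid cell was 3015 and 3017.5 in these libraries and ranged from 2368 in E60_1 to 4806 in E60_3 in the others. The part of these additional genes in the results below was not tested. The numbers of calls are also given with single libraries left out, but not with E70_1 and E70_2 left out together.

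The line at 30% divided a continuous range in some libraries and an empty one in others. E60_1 held 70 barcodes at 25% to 30% HBB and 49 at 30% to 35%, with 29.99% as the highest share below the line and 30.03% as the lowest above it. In E60_3 no barcode lay between 23.5% and 36.3%, and in Adult_1 none between 21.0% and 50.8%. In E70_2 30.7% was the lowest share within and 24.1% the highest outside. E60_1 and E60_2 held 374 and 213 of the 647 barcodes with 5% to 30% HBB.

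HBM had the most UMIs of the remaining 3 members and was detected in nearly all erythroid cells, with a UMI in 89.7% to 100% of them against at most 7.62% of the other cells of a library. Its level is given as UMIs per 10000 HBB UMIs, a ratio within the same cells. HBM stood at 58.2 in E50_1, at 44.9, 41.0 and 38.2 in E60_1, E60_2 and E60_3, at 26.9, 28.2 and 25.4 in E70_1, E70_2 and E70_3, and at 43.6 in Adult_1. Each E70 library lay below each E60 library, E50_1 lay above both groups, and the adult library lay within the range of E60. On the log2 scale the E60 libraries averaged 5.37 ± 0.12 (SD, n = 3) and the E70 libraries 4.75 ± 0.08, a difference of -0.62, or 0.65 times the E60 ratio. The exact permutation test gave p = 0.1, two-sided, which is the smallest p this design allows, and 0.533 after adjustment over the same 8 comparisons. Of the 2387 genes with at least 100 UMIs in these erythroid cells, 4.19% were lower at E70 without overlap in the same way and 9.3% did not overlap in either direction. HBM was lower in both pairs of libraries that shared a pool, by -0.74 for E70_1 against E60_1 and by -0.59 for E70_3 against E60_3 on the log2 scale.

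**Figure D2:**
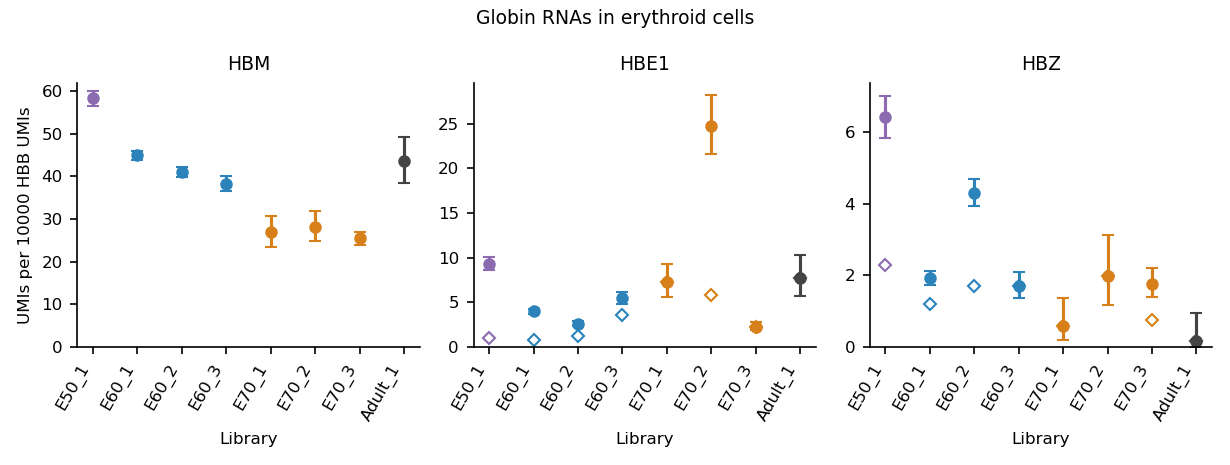
HBM, HBE1 and HBZ UMIs per 10000 HBB UMIs, summed over the erythroid cells of each whole-cell library, with exact 95% intervals that cover counting error only. Open diamonds give HBE1 and HBZ without the cells at or above 50 per 10000. HBM is at 38.2 or more in the E60 libraries and at 28.2 or less in the E70 libraries.

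HBM was uneven from cell to cell. A share of cells had at least 50 HBM UMIs per 10000 HBB UMIs, a line set after the values were seen. These cells made up 33.5% of the erythroid cells in E50_1, 23.2%, 21.9% and 15.3% in the E60 libraries, 17.2%, 10% and 11% in E70_1, E70_2 and E70_3, and 33.3% in Adult_1. They held 79.4% of the HBM UMIs of erythroid cells in E50_1, 33.5% in E70_3 and 64.9% in Adult_1. In the median cell, the stages were closer together. The median was 30.8 per 10000 in E50_1, 25.1, 24.2 and 17.9 in the E60 libraries, 17.2, 15.02 and 18.1 in the E70 libraries and 31.4 in Adult_1. E60_3 therefore lay within the range of E70 by its median cell, although not by its sum.

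HBE1, the embryonic epsilon chain, had far fewer UMIs and showed no order by stage. Its ratio was 9.31 per 10000 HBB UMIs in E50_1, 3.97, 2.59 and 5.46 in the E60 libraries, 7.28, 24.8 and 2.27 in the E70 libraries, and 7.74 in Adult_1. The lowest and the highest of these values both came from E70. On the log2 scale the E60 libraries averaged 1.94 ± 0.54 (SD, n = 3) and the E70 libraries 2.90 ± 1.72 (p = 0.5 by the two-sided exact permutation test). A single cell held 176 of the 225 HBE1 UMIs of E70_2 (78.2%), and the ratio was 5.76 without it. Leaving out E70_2 lowered the log2 difference between the stages from 0.96 to 0.09, and leaving out E70_3 raised it to 1.82.

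Most HBE1 molecules were concentrated in a few cells. In E50_1, 5 of 155 erythroid cells with at least 50 HBE1 UMIs per 10000 HBB UMIs held 89.6% of the HBE1 UMIs. E60_1 had 11 such cells of 684, with 79.7% of its HBE1 UMIs, and E60_2 had 2 of 421, with 52.8%. E60_3 had 2, E70_2 had 1, and E70_1, E70_3 and Adult_1 had none. The richest cell of the series lay in E50_1 and carried 431 HBE1 UMIs beside 3985 HBB UMIs and 0 HBZ UMIs. The lowest HBB count among these 21 cells was 1911 UMIs, which the rule for erythroid cells sets in part.

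The rest of HBE1 was spread thinly, and its spread differed between libraries. Without the rich cells, the ratio was 0.998, 0.819 and 1.23 per 10000 in E50_1, E60_1 and E60_2, but 3.56 in E60_3, 7.28, 5.76 and 2.27 in the E70 libraries and 7.74 in Adult_1. In E50_1, E60_1 and E60_2 the median erythroid cell held no HBE1 UMI, and 17.4% to 30.3% of cells had 1 or more. In E60_3, the E70 libraries and Adult_1, 59% to 88.9% of the cells had 1 or more. When each cell was thinned to 1000 UMIs, the share of erythroid cells with HBE1 was 4.53% to 9.68% in the first 3 libraries and 16.3% to 43.3% in the other 5. At equal depth per cell the libraries thus still fell apart in the same way. E60_3 lay with the E70 libraries in this respect.

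An identifier with no symbol in the files or reference tables, ENSSSCG00000036777, was found in the same rare cells. Of its erythroid UMIs, 97.1% in E50_1, 93.6% in E60_1, 88.9% in E60_2, 96.9% in E60_3 and 99.5% in E70_2 lay in the HBE1-rich cells. Where no HBE1-rich cell was found, the identifier had 2 UMIs in E70_1, 14 in E70_3 and 0 in Adult_1. A second identifier without a symbol, ENSSSCG00000014727, had the other pattern. It stood at 8.03 per 10000 HBB UMIs in E50_1, 6.75, 9.36 and 34.9 in the E60 libraries, 86.2, 77.2 and 23.9 in the E70 libraries and 85.3 in Adult_1. The libraries in which this identifier was high were those in which thinly spread HBE1 was high. This was noted after the values were seen and was not tested.

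HBZ, the embryonic zeta chain, had the fewest UMIs of the members in 7 of 8 whole-cell libraries. It stood at 6.40 per 10000 HBB UMIs in E50_1, 1.91, 4.30 and 1.69 in the E60 libraries, 0.587, 1.98 and 1.76 in the E70 libraries, and 0.168 in Adult_1. E50_1 was highest and Adult_1, with 1 HBZ UMI, was lowest, while the E60 and E70 libraries overlapped. On the log2 scale the E60 libraries averaged 1.27 ± 0.73 (SD, n = 3) and the E70 libraries 0.41 ± 0.90 (p = 0.5 by the two-sided exact permutation test). The E70_1 value rests on 5 UMIs and has an exact 95% interval from 0.191 to 1.37.

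At the same line of 50 per 10000, 25 erythroid cells were rich in HBZ, 21 were rich in HBE1, and 1 cell was rich in both. The HBZ-rich cells numbered 6 in E50_1, 7 in E60_1, 11 in E60_2 and 1 in E70_3. They held 65.9%, 38.3%, 61.5% and 56.96% of the HBZ UMIs of those libraries. The cell with most HBZ had 99 HBZ UMIs in E60_2, with 2990 HBB UMIs and 0 HBE1 UMIs. Of the 25 HBZ-rich cells 14 had under 500 genes, as had 13 of the 21 HBE1-rich cells.

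**Figure D3:**
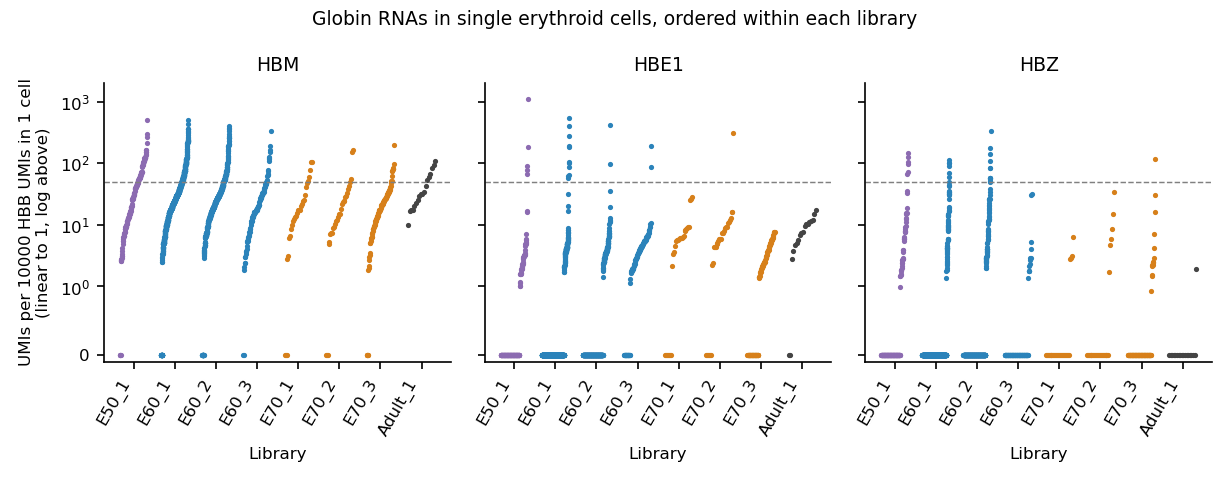
Each point is 1 erythroid cell, with UMIs of HBM, HBE1 or HBZ per 10000 of its own HBB UMIs on an axis that is linear to 1 and logarithmic above. Cells are ordered by value within their library and the dashed line marks 50. HBM forms a continuous range, whereas HBE1 and HBZ are at 0 in many cells and pass the line in 21 and 25 cells.

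The erythroid cells were next compared with the other cells of the same library across all genes, in the 7 whole-cell libraries with at least 20 erythroid cells. HBB was left out of the counts. Of 15203 genes tested, 1166 (7.67%) passed edgeR's quasi-likelihood test with Benjamini-Hochberg adjustment, 633 (4.16%) of them higher and 533 (3.51%) lower in erythroid cells, and 21.8% had an unadjusted p under 0.05. Of the calls 54.3% were thus higher, against 81.5% of the 780 calls by DESeq2, and the number of edgeR calls was 718 without E60_2. HBM, HBE1 and HBZ were all among the higher genes. HBZ reached at most 1.69 CPM in other cells, in E60_2, so it can pass the filter on low counts through the erythroid sums alone. Its fold and p-value are therefore given as a description only. HBM differed by a log2 fold change of 10.42 ± 0.69 (SE), HBE1 by 10.06 ± 0.66 and HBZ by 11.002 ± 0.66, with adjusted p-values of 1.50329e-48, 1.84166e-49 and 2.17369e-58. On this scale, on which the counts without HBB are normalised by the trimmed mean of M-values, the median gene stood at -0.41, and at -0.28 with relative log expression factors.

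Measured as CPM of all UMIs, HBB included, the differences were smaller. HBM stood at 2979 CPM in erythroid cells and 22.9 CPM in other cells of E50_1, and at 1343 and 4.89 CPM in E70_3. HBE1 stood at 476 and 3.46 CPM in E50_1 and at 120 and 0.556 CPM in E70_3. HBZ stood at 328 and 0.994 CPM in E50_1 and at 92.7 and 0.741 CPM in E70_3. All 3 members were higher in erythroid cells in each of the 8 whole-cell libraries.

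The 10 genes with the largest folds included the 3 members tested and the 2 identifiers named above. The others were AHSP, which stabilises free alpha chains (10.60 ± 0.69), ALAS2, which makes the first step of heme synthesis in red cells (9.88 ± 0.66), PYY, known as a gut hormone (10.54 ± 0.68), and the identifiers ENSSSCG00000007978 (10.34 ± 0.66) and ENSSSCG00000040098 (9.44 ± 0.58). ENSSSCG00000007978 had the most UMIs after HBB, at 4234 UMIs per 10000 HBB UMIs in Adult_1 and 4801 to 7454 in the 7 other whole-cell libraries. It has no symbol in the files or the reference tables. The alpha chain genes HBA, HBA1 and HBA2 were not found in the files under these names.

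A list of 58 erythroid genes was set beside the members, and 47 of them were in the files and 43 tested. Of these, 35 were higher, 0 were lower and 8 did not pass, against the 4.16% of all genes that were higher. The median log2 fold change was 3.69 over the list and -0.41 over all genes. All 8 genes of heme synthesis were higher, from PPOX at 1.63 to ALAS2 at 9.88, with FECH, which inserts iron into heme, at 5.29. All 10 tested genes of the membrane and its skeleton were higher, among them the anion exchanger SLC4A1 at 6.97, RHAG at 6.51, KEL at 5.69 and EPB42 at 5.64. The KEL fold rests on 11 UMIs in erythroid cells and 33 in other cells. Of the 3 tested genes of iron import only SLC25A38 (1.86) was higher, and TFRC (0.23) and STEAP3 (1.04) did not pass. Among the tested globin chaperone and red cell enzyme genes, 5 of 6 were higher and CA2 (0.39) did not pass. Of 7 transcription factors, 4 were higher, which were NFE2 (7.599), GATA1 (6.40), KLF1 (5.82) and GFI1B (2.24). They had 106, 49, 28 and 9 UMIs in erythroid cells. Genes this sparse can pass the filter on low counts through the erythroid sums alone, which limits the count of higher genes. BCL11A (-0.33), ZBTB7A (-0.64) and MYB (-2.15), of which BCL11A and ZBTB7A are known to silence fetal beta-like globin genes in humans, did not pass. TRIM58 stood at 7.87, TSPO2 at 7.42, and the heme product enzyme BLVRB at 5.90. Of the other globins, the alpha-like HBQ1 was higher (4.37) and cytoglobin CYGB (-0.13) and neuroglobin NGB (-0.25) did not pass.

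HBQ1 differed from the members in where its molecules lay. It had 99 UMIs in erythroid cells and 1959 in other cells of E50_1, or 1.37 and 133 per 10000 HBB UMIs. In E60_1 the corresponding ratios were 0.647 and 35.3, and in E70_3 0.222 and 27.6. In all 8 whole-cell libraries most HBQ1 UMIs lay outside erythroid cells. The higher fold of HBQ1 on the normalised scale above and this ratio describe different quantities, since the first is set against the few RNAs that are not hemoglobin.

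Between the stages, no gene passed in erythroid cells when E70 was compared with E60 over 1549 genes (edgeR, 0 called, or 0%, with 18.8% at an unadjusted p under 0.05, and 228 called by DESeq2). The log2 fold changes with HBB left out were -1.02 ± 1.37 (SE) for HBM, -0.14 ± 1.21 for HBE1 and -0.75 ± 1.13 for HBZ, with adjusted p-values of 0.702, 0.959 and 0.741.  The count was 1247 without E60_3, 1226 without E70_3 and 12 without E60_2, and no member passed in these fits.

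Outside erythroid cells, HBB was present in most barcodes of the whole-cell libraries. The share of other cells with at least 1 HBB UMI was 99.7% in E50_1, 97.1%, 99.2% and 87.8% in the E60 libraries, 98.1%, 89.6% and 68.0% in the E70 libraries and 73.3% in Adult_1. It was 0.932% and 0.549% in the nuclei of E70_nc and Adult_nc. The median other cell held 7 HBB UMIs in E50_1, 4, 6 and 2 in the E60 libraries, 4, 3 and 1 in the E70 libraries, 1 in Adult_1 and 0 in the nuclei. Thinned to 1000 UMIs per cell, the shares were 54.0% in E50_1, 60.6%, 63.1% and 23.5% at E60, 38.1%, 25.7% and 14.6% at E70 and 18.5% in Adult_1. The nuclei then stood at 0.6% and 0.508%, after 25 and 1962 shallower nuclei had been left out.

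The level of HBB in other cells varied widely between libraries of the same stage. It was 2715 CPM in E50_1, 10984, 12583 and 1569 CPM in E60_1, E60_2 and E60_3, 4309, 567 and 1542 CPM in E70_1, E70_2 and E70_3, 1567 CPM in Adult_1, and 5.83 and 6.85 CPM in the nuclei. The E60 and E70 libraries overlapped, and E60_3, E70_3 and Adult_1 lay close together. On the log2 scale the E60 libraries averaged 12.55 ± 1.68 (SD, n = 3) and the E70 libraries 10.60 ± 1.46, with -1.95 as their difference (p = 0.2 by the two-sided exact permutation test). Within the shared pools the differences were -1.35 for E70_1 against E60_1 and -0.03 for E70_3 against E60_3.

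Much of this HBB lay in few barcodes. The barcodes with 5% to 30% HBB held 89.4% of the HBB UMIs of other cells in E60_1, 85.9% in E60_2, 83.1% in E70_3 and 18.1% in E70_2. Without them, HBB stood at 887 CPM in E50_1, 1236, 1893 and 506 CPM in the E60 libraries, 1726, 465 and 264 CPM in the E70 libraries and 197 CPM in Adult_1. The nuclei held none of these barcodes. Clusters of 61 other cells in E60_2 and 6 in E70_1 were named erythroid from the marker list, and 58 and 6 of these cells had 5% to 30% HBB. They held 70859 of the 290477 HBB UMIs of other cells in E60_2 and 9129 of 26127 in E70_1. They count as other cells in all values for barcodes under 30% HBB, including the ratios set against erythroid cells below.

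HBM, HBE1 and HBZ were low in other cells. HBM stood at 22.9 CPM in E50_1, 49.2, 36.5 and 5.14 CPM in the E60 libraries, 15.01, 0.449 and 4.89 CPM in the E70 libraries and 9.77 CPM in Adult_1. HBE1 lay between 0.556 CPM in E70_3 and 5.28 CPM in E60_2, and HBZ between 0 in E70_2 and Adult_1 and 1.69 CPM in E60_2. The E60 and E70 libraries overlapped for all 3 genes, and the exact permutation tests of E70 against E60 gave p = 0.2 for HBM, 0.6 for HBE1 and 0.6 for HBZ. In the fit across 16719 genes in other cells, none of the 4 members passed, and neither did any other gene (edgeR, 0 called, or 0%, with 29.1% at an unadjusted p under 0.05). DESeq2 called 2833 genes, HBB among them, with a log2 fold change of -2.22 and an adjusted p of 0.0438. By edgeR, HBB had a log2 fold change of -2.23 ± 0.98 (SE) and an adjusted p of 0.176. Without E60_3 edgeR called 5913 genes, HBB among them with a log2 fold change of -2.78 and an adjusted p of 0.0456, and without E70_3 it called 1490.

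The ratios to HBB in other cells were then set against those in the erythroid cells of the same library, since RNA from 1 source keeps its genes in 1 ratio. HBM in other cells stood at 84.2 per 10000 HBB UMIs in E50_1, 44.8, 29.0 and 32.8 in the E60 libraries and 34.8, 7.91 and 31.7 in the E70 libraries. Against the erythroid cells of the same library it was higher in 3 and lower in 4 of 7 libraries, with a mean log2 difference of -0.16 ± 0.74 (SD, n = 7; exact sign-flip test, two-sided, p = 0.703, smallest p 0.0156). The E70_2 value rests on 3 UMIs, and the mean was 0.09 without that library. HBE1 was higher in 5 of 7 libraries, by a mean of 0.25 ± 0.56 (exact sign-flip test, p = 0.266). In other cells under 5% HBB this mean was 0.85 ± 1.26, again higher in 5 of 7 libraries (exact sign-flip test, p = 0.141), with 2.73 in the highest library. HBZ was lower in 5 of 7 libraries, by a mean of -0.60 ± 1.21 (exact sign-flip test, p = 0.203). The adjusted p-values over the 3 genes were 0.703, 0.398 and 0.398. These means did not differ from 0 by more than the spread between libraries, which does not show that the ratios were equal.

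**Figure D4:**
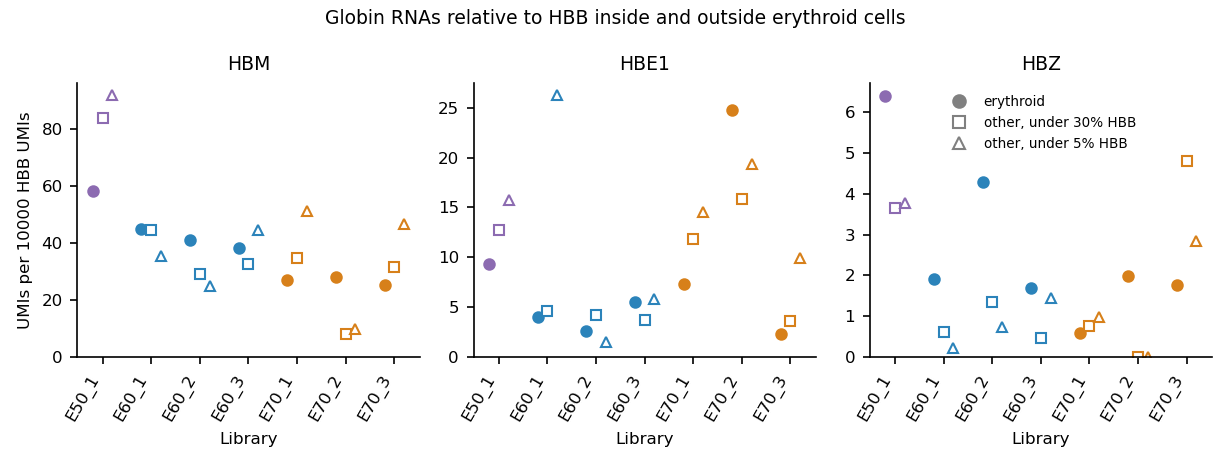
UMIs of HBM, HBE1 and HBZ per 10000 HBB UMIs in the 7 libraries with at least 20 erythroid cells, in erythroid cells (filled circles), in other cells under 30% HBB (squares) and in other cells under 5% HBB (triangles). HBE1 in E60_1 is at 3.97 in erythroid cells and at 26.2 in cells under 5% HBB.

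The transcripts whose level in other cells followed that of HBB most closely over the 8 whole-cell libraries were found by Pearson's r of log2(CPM + 1) among 16414 genes. AHSP ranked highest with r = 0.981, ENSSSCG00000007978 ranked 5 with 0.948, and HBM ranked 12 with 0.935. HBE1 ranked 84 with 0.854 and HBZ 720 with 0.728. Between them stood genes that are not known from red cells, such as ARFGEF1 (0.962), LASP1 (0.953), PLXDC2 (0.949), SLITRK2 (0.945) and ZNF521 (0.943). SLC16A13 (0.947), IDNK (0.941) and ENSSSCG00000008440 (0.948) complete the 10 genes. The 8 points share their libraries and differ in cell composition as well as in blood, so these values are a description only.

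By cell class, HBB was compared in the other cells between each marker-named class and the rest of the same library. In barcodes under 5% HBB, endothelial-like cells stood at 2123 CPM in E50_1, 1064, 1830 and 3364 CPM in the E60 libraries, 1959 CPM in E70_3 and 219 CPM in Adult_1. The rest of these libraries stood at 809, 1259, 1919, 257, 165 and 190 CPM. Endothelial-like cells were thus higher in 4 of 6 libraries, with a mean log2 difference of 1.43 ± 1.81 (SD, n = 6; exact sign-flip test, p = 0.188, adjusted over 5 classes 0.234). A few cells carried these values, since the mean endothelial-like cell held 104 HBB UMIs in E60_3, 45.3 in E70_3 and 62.8 in E50_1, but the median cell 4, 2 and 15. Counted as UMIs per cell they were higher in 6 of 6 libraries, by 2.69 on the log2 scale (exact sign-flip test, p = 0.0312, the smallest this design allows), and these cells also had more UMIs in all, with medians of 6624 to 25672. Mural-like cells, which support the vessel wall, stood at 2641 CPM in E60_1 against 1083 CPM in the rest, and at 4711 against 1472 CPM in E60_2, but were named in too few libraries to be tested. Here too the mean cell held more than the median cell, with 25.2 and 6 HBB UMIs in E60_1 and 70.6 and 9 in E60_2.

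Astrocyte and radial glia-like cells had less HBB than the rest in 8 of 8 libraries under 5% HBB, by a mean of -0.86 ± 0.58 on the log2 scale (exact sign-flip test, p = 0.00781, adjusted 0.0391). Interneuron-like cells had less in 7 of 8, by -0.67 ± 0.64 (exact sign-flip test, p = 0.0156, adjusted 0.0391). Counted as UMIs per cell, 1 library was higher for the first class (-0.68, exact sign-flip test, p = 0.0234) and 2 for the second (-0.91, p = 0.0547), so that the interneuron-like call was lost. In some libraries the rest held a class with far more HBB. Under 5% HBB in E60_3, astrocyte and radial glia-like cells stood at 236 CPM and the rest at 571 CPM. Interneuron-like cells there stood at 263, excitatory neuron-like cells at 257 and endothelial-like cells at 3364 CPM. In E70_3 the values were 125 and 287 CPM, then 149, 157 and 1959 CPM. The names astrocyte and radial glia-like and interneuron-like are broad. The interneuron-like class took in a cluster of E50_1 led by PENK, TH and SLC6A3 and clusters of E50_1 and E60_1 led by CALB1 and SKOR2, which have none of the class's markers among their 10 leading genes, and the astrocyte and radial glia-like class took in clusters led by cell cycle or cilium genes. With clusters kept that have a marker among these 10 genes, a choice made after the data were seen, interneuron-like cells were lower in 8 of 8 libraries by -0.68 ± 0.62 (exact sign-flip test, unadjusted p = 0.00781). Astrocyte and radial glia-like cells were then lower in 5 of 6 by -0.56 ± 0.45 (exact sign-flip test, unadjusted p = 0.0625), and that call was lost. Over all barcodes under 30% HBB these differences were -1.19 and -1.74, with an adjusted p of 0.0781 each by the same exact test. The calls thus rest on leaving out the barcodes of 5% to 30%. That cut is made on HBB itself, the value tested, which limits what the calls can show. Microglia-like cells differed by -0.12 ± 0.76 (SD, n = 6; exact sign-flip test, p = 0.75) and oligodendroglia-like cells by -0.41 ± 0.32 (SD, n = 6; exact sign-flip test, p = 0.0625).

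The ratio of HBM to HBB was also read by class, in barcodes under 5% HBB, where it rests on few HBM UMIs. In E50_1 it was 77.0 per 10000 HBB UMIs in astrocyte and radial glia-like and 67.3 in excitatory neuron-like cells, but 213 in endothelial-like cells, against 58.2 in erythroid cells. The endothelial-like value rests on 143 HBM UMIs, which lay in 18 of the 107 cells. In the other libraries endothelial-like cells stood at 64.9 in E60_3 and 58.6 in E70_3, above the 38.2 and 25.4 of erythroid cells, and at 18.8 in E60_1, below the 44.9 of erythroid cells. In E60_2 it was 33.7 in astrocyte and radial glia-like, 36.1 in microglia-like and 25.5 in endothelial-like cells, against 41.0 in erythroid cells.

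Among the other cells, most HBE1 UMIs of some libraries lay in few cells, and the class of these cells differed. Over all barcodes under 30% HBB, 96 of 188 HBE1 UMIs in E50_1 lay in 5 microglia-like cells and 89 of 122 in E60_2 in 2 mural-like cells. Only 4 of the 96 UMIs lay in barcodes under 5% HBB, and the others in 1 barcode of 5% to 30% HBB. Of the 89 UMIs, 0 lay in barcodes under 5% HBB. Under 5% HBB, 9 of 15 in E70_1 lay in 2 cells of a cluster named fibroblast-like, and the remaining libraries other than E50_1 and E60_1 had 8 HBE1 UMIs or fewer. That cluster of E70_1 had no fibroblast marker among its 10 leading genes. These included CD93, APLNR, APOA1 and MYCT1, which also led the endothelial-like clusters of E50_1 and E60_3, so its name is doubtful. In E60_1, 104 of the 123 HBE1 UMIs in barcodes under 5% HBB (84.6%) lay in 2 clusters of 282 such cells. NEUROD1, CBLN1 and ZIC4 stood among their 10 leading genes together with HBE1 and ENSSSCG00000036777, and the first 3 are known from granule neurons and their precursors in the cerebellum. HBE1 reached 82.0 CPM in these cells and 0.518 CPM in the 6831 others. An HBE1 UMI was found in 31 of the 282 cells (10.99%) and in 18 of the others (0.264%), at a median of 4134 and 4217 UMIs per cell. Of the 31 cells, 11 had a single HBE1 UMI and the richest had 11. The clusters were found without any globin gene among the variable genes, but were singled out here after HBE1 had been seen in them, and cells of 1 library are not replicates, so no test is given.

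The other globin RNAs did not follow HBE1 there. HBB stood at 1017 CPM in the 282 cells and at 1244 CPM in the others of E60_1, and the median HBB count was 3 in cells with HBE1 and 3 in cells without. HBM had 2 UMIs, or 15.5 per 10000 HBB UMIs against 36.0 in the others, and HBZ had 0. HBE1 stood at 807 per 10000 HBB UMIs, against 3.97 in the erythroid cells of the library. ENSSSCG00000036777, the companion of HBE1 in erythroid cells, had 114 UMIs and was found in 21 of the 31 cells with HBE1. The cells also had PAX6 at 230 CPM, ZIC1 at 127 CPM and RELN at 1438 CPM, against 25.1, 10.2 and 117 CPM in the others, which is the profile of granule-like neurons with PAX6, ZIC and RELN.

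The same profile in E50_1 also carried HBE1, at a lower level. There, 1 cluster of 137 cells, led by CBLN1 and ZIC4 with NEUROD1 among its first genes, held 30 of the 75 HBE1 UMIs under 5% HBB (40%). HBE1 stood at 23.5 CPM in it and at 0.859 CPM in the 5187 others, and was found in 15 of the 137 cells (10.9%) and in 39 of the others (0.752%). In 13 of the 15 cells there was a single UMI, and 1 cell held 13 of the 30. ENSSSCG00000036777 had 5 UMIs in the cluster. HBB was again no higher than elsewhere, at 763 against 890 CPM. No cluster with at least 2 of NEUROD1, CBLN1 and ZIC4 among its 10 leading genes was found in the other 8 libraries. Whether HBE1 reads in these cells come from the HBE1 gene itself was not tested, since the files hold counts and not reads.

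**Figure D5:**
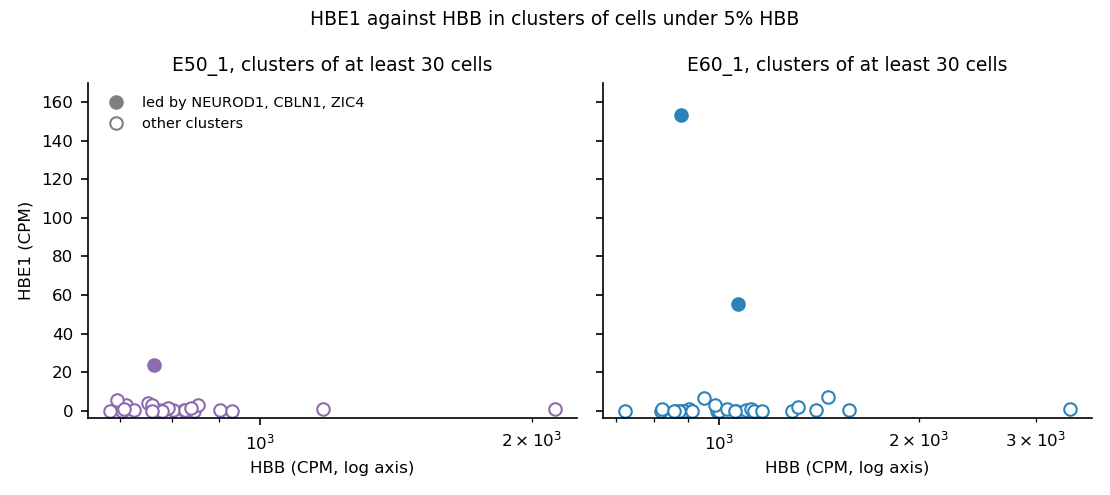
HBE1 against HBB in CPM for each cluster of at least 30 cells under 5% HBB in E50_1 and E60_1, with HBB on a log axis. Filled circles are the clusters led by NEUROD1, CBLN1 and ZIC4, which reach 23.5 CPM in E50_1 and 55.3 and 154 CPM in E60_1 at HBB levels like those of the open circles.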

How the data were processed

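Droplet libraries of whole cells or nuclei were made with 10X Genomics version 2 3′ chemistry. The authors deposited raw UMI counts per gene and barcode, made with Cell Ranger (version 2.20 in the submitters' processing notes) on Sscrofa11.1 with introns counted, and no further normalisation. Barcodes were used as deposited. Counts were summed per library and compartment. Ratios were taken as UMIs per 10000 HBB UMIs, with 0.5 UMI added on the log2 scale, and intervals are exact Clopper-Pearson 95% limits. E60 and E70 were compared by exact permutation tests over libraries and by edgeR 4.0.16 in R 4.3.3, with DESeq2 1.42.0 as an alternative. Compartments and classes of the same library were compared by exact sign-flip tests or by edgeR with library as a block. The named genes were the 4 members, the 10 largest folds among calls, the erythroid list and the 10 genes most like HBB. The other cells were clustered per library with scanpy 1.11.5 (2000 variable genes, 30 components, Leiden resolution 1), with globin and marker genes kept out of the variable genes, and classes were named from marker lists. The members and lists were chosen with earlier results of these data known. The globin-like identifiers were added to the genes kept out after values had been seen. The test scripts were tested on simulated counts, in which the fit of erythroid against other cells made more false calls than its nominal share and the fits of the stages recovered few of the changed genes. The labels give the number of brains per library but no animal identities, so p-values measure the spread between libraries, and pooled brains count as 1 sample. Motif and coding sequences were read from RefSeq Sscrofa11.1. Replicate numbers did not pair the libraries.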

Additional observations from a re-analysis of the deposited data

Results flagged for a closer look

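HBB was also found in the nuclei, which entered none of the main comparisons between stages. E70_nc joined the E70 libraries only in alternative runs of the erythroid share and of CPM in other cells, not given here. HBB stood at 5.83 CPM in E70_nc, from 18 UMIs, and at 6.85 CPM in Adult_nc, from 16 UMIs. Both values lie above the limit that a count of 0 allows, and both are under the level of any whole-cell library, of which the lowest was 567 CPM in E70_2. HBE1 had 1 UMI in each of these libraries, and HBM and HBZ had 0. The source of the HBB UMIs was not tested.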

How the results depend on the processing

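The lower HBM ratio at E70 kept its direction under every alternative run, from -0.68 to -0.56 when 1 library was left out. No stage comparison of a single value passed its threshold, which 3 libraries against 3 cannot reach. HBE1 and HBZ differences between stages changed sign easily, and the cause was not tested. With the erythroid line at 50% HBB, which leaves E70_3 as the only E70 library, the HBE1 ratio in erythroid cells differed by -0.15 between the stages, with no test. In other cells the stage difference of HBE1 CPM was 0.21 with the line at 10% and 0.41 under 5% HBB. That of HBZ CPM was 1.18 and 0.25 with the line at 10% and 50%, 0.53 under 5% HBB, 0.58 after thinning, 0.20 without E60_2 and -1.92 to 0.24 over all libraries left out in turn. The HBM ratio of other to erythroid cells was 0.053 under 5% HBB, 0.19 and 0.75 with the line at 10% and 50%, 0.089 in libraries with at least 100 erythroid cells, and -0.27 to 0.086 with 1 library left out.

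By class, HBB passed with the line at 10% in astrocyte and radial glia-like (-1.31), endothelial-like (2.84), interneuron-like (-1.35), microglia-like (-0.72) and oligodendroglia-like cells (-1.10), and under 5% HBB in astrocyte and radial glia-like (-0.86) and interneuron-like cells (-0.67), or -0.68 for the latter with clusters led by a marker. These lines are cuts on HBB itself, the value compared, which limits what the calls can show. Microglia-like cells ranged from -0.86 to 0.36 with 1 library left out.

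Erythroid against other cells gave 422 calls with the line at 10%, of which 92.7% were higher, and 718 to 1010 with 1 library left out. In other cells, E70 against E60 gave 2833 calls by DESeq2 and 0 to 5913 with 1 library left out, with 1490 without E70_3. The HBE1 fold there was 0.59 with the line at 50%, and HBZ ranged from -2.55 to 0.00408, the latter without E60_2. In erythroid cells, the same stages gave 9 calls with the line at 10%, 1 with relative log expression factors, 690 without the filter on low counts, 228 by DESeq2, 1 with HBB kept, and 0 to 1247 with 1 library left out. The HBE1 fold there was 1.37 with the line at 10%, 0.23 with HBB kept, and -1.08 to 1.66 with 1 library left out, 0.57 without E70_1. HBM ranged from -2.44 to 0.17 and HBZ from -2.56 to 0.041, with 0.03 without E60_3. That comparison with the line at 50% was not run, since 1 E70 library remained.

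Samples with the same replicate number did not deviate together, with correlations of -0.143, 0.0456 and -0.0830, and 1 of the 3 E60 libraries correlated best with its own number. With the number as a block, the HBM ratio stayed at -0.62 (exact sign-flip p = 0.25, the smallest possible), the count of calls was 0 in other cells and 55 in erythroid cells, and the HBE1 fold in erythroid cells was 0.40.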
